A study of Mus musculus with 28 samples.

Results

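The knockdown of Rai1 was examined in cultures with raised activity, as nascent RNA in 3 libraries with an shRNA against Rai1 and bicuculline (shRai1_BIC) against 2 libraries with a control shRNA and bicuculline (shCtrl_BIC). The genes described are the 12333 whose normalized count averaged at least 50 over all Bru-seq libraries, out of 21192 genes with a test and 22919 genes listed. The cultures were CD1 mouse forebrain, with cortices and hippocampi pooled from embryos at embryonic day 18, and held neurons, astrocytes and oligodendrocyte precursor cells. Lentivirus was added on day in vitro 14 and BIC, at 20 µM, on day 17 for 4 hours, with 2 mM bromouridine present for the last 20 minutes, and all groups carried a lentiviral shRNA. In Bru-seq the bromouridine-labelled RNA is captured with an antibody, so the counts report RNA made during the label. The groups of vehicle (water) and TTX (1 µM tetrodotoxin) used for comparison had 3 shRai1 libraries each, 2 shCtrl libraries in vehicle and 3 in TTX. Each replicate was a separate pool of embryos with a matched sex ratio, per the series' design text. The control BIC libraries carry the replicate numbers 2 and 3, whereas the shRai1 BIC libraries carry 1, 2 and 3. The control vehicle libraries carry 1 and 2. The part of the missing numbers in the results was not tested.

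RAI1 is a chromatin-associated regulator of transcription whose loss of 1 copy causes Smith-Magenis syndrome in people. Bicuculline blocks GABA-A receptors, which removes fast inhibition and lets neurons fire in bursts. Calcium entering with this firing drives the activity-regulated genes (Fos, Npas4, Arc and many others) within minutes to hours, and over longer times neurons scale their synapses down. Oligodendrocyte precursor cells, which share these cultures, are marked by the PDGF receptor Pdgfra and the proteoglycan Cspg4 (NG2) and sense neuronal activity.

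The values are the authors' summaries from 1 DESeq2 fit, with no value per library, so no point per library can be shown and each log2 change is given with the standard error (SE) of that model. How deep single libraries were sequenced is unknown. A positive change means more nascent RNA with the Rai1 shRNA. A gene is called where the adjusted p is under 0.05, and "unadjusted p" below is the Wald p of the authors' deposited table before adjustment. In bulk cultures, fewer cells of a type and less RNA per cell cannot be told apart.

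Raised activity was checked with 48 activity-regulated genes. In the authors' deposited tables BIC against vehicle gave a median log2 change over these genes of 0.78 in shCtrl and 1.17 in shRai1, with 38 and 41 of the 48 higher, while TTX, which blocks the sodium channels behind firing, gave -1.81 and -1.49, with all 48 lower in both arms. Cell type markers in shCtrl_BIC, as sums of the authors' pooled FPKM, stood at 1327 for 18 neuronal genes, 470 for 16 astrocyte genes, 239 for 20 oligodendrocyte-lineage genes, 36.3 for 14 microglial genes and 9.94 for 13 vascular and fibroblast genes. The microglial markers Tyrobp and Fcrls, the endothelial Cldn5, the myelin gene Mag and the astrocytic Gjb6 were listed at 0. Markers of the labelled cell types were thus detected, and these sums over different genes do not rank the cell types.

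Rai1 itself gave no check of the labels. The authors' FPKM table places it at chr11:59918515-60034106 (mm9 is the build in the submitters' processing notes), an interval shared with Srebf1, Mir6921 and Mir6922. Its pooled FPKM in shCtrl_BIC was 19.3 (bounds in the file, 13.6 to 25.0). The authors' deposited table for BIC gave a change of 0.03 (SE 0.073, unadjusted p 0.660), an interval of -0.11 to 0.17. In vehicle the authors' deposited table gave 0.16 (SE 0.073, unadjusted p 0.0252), higher in the libraries labelled shRai1, and in TTX it gave -0.12 (SE 0.0643, unadjusted p 0.0523). An shRNA acts on finished mRNA, and nascent RNA need not show it. Directions below rest on the labels of the arms. The shRai1 columns of the FPKM table carry treatment names that do not follow the comparison tables, so they are not used as levels, and the part of this in the comparisons between treatments was not tested.

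Across the 12333 genes the deposited changes of the knockdown under BIC were small. The median log2 change in the authors' deposited table was 0.01, the quartiles were -0.07 and 0.08, and 93.2% of genes lay within 0.25 of 0. No gene reached 1 in either direction, 18 stood at or above 0.5 and 32 at or below -0.5. These changes are shrunken for genes with few counts, and the part of the shrinkage in these sizes was not tested. The authors' adjusted p called 2 genes (0.0162% of 12333), a fall of Pdgfra and a rise of Mnt. At an unadjusted p under 0.05 there were 521 genes (4.22%), 278 higher (2.25%) and 243 lower (1.97%), where a test without any difference gives 5% on average. The same minimum in the other treatments held 119 called genes in vehicle (0.965%) and 6 in TTX (0.0486%), with 1513 (12.3%) and 581 (4.71%) at an unadjusted p under 0.05. The deposited adjustment in vehicle covers 14237 genes, against 21192 under BIC and in TTX. Adjusted alike over all 21192 genes, an alternative chosen after seeing the data, the calls were 2 under BIC, 80 in vehicle and 6 in TTX, and over the 12333 genes 5, 124 and 6. The precision was alike in the 3 treatments, with a median SE of 0.121 under BIC, 0.120 in vehicle and 0.107 in TTX. Under BIC the 95% interval lay inside ±0.5 for 10057 genes (81.5%) and inside ±1 for 12303 (99.8%). Changes of low genes are shrunken in this fit and their SE stays limited, at 0.42 for Crh with a mean count of 5.02. A gene with few counts can thus lie inside ±1, and this share does not show that doublings and halvings were absent. Just inside the count minimum stood Triqk (mean count 50.03, change 0.14, SE 0.271), and just outside it Il4ra (49.99, change 0.06, SE 0.305), and no gene below the minimum was called.

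**Figure D1:**
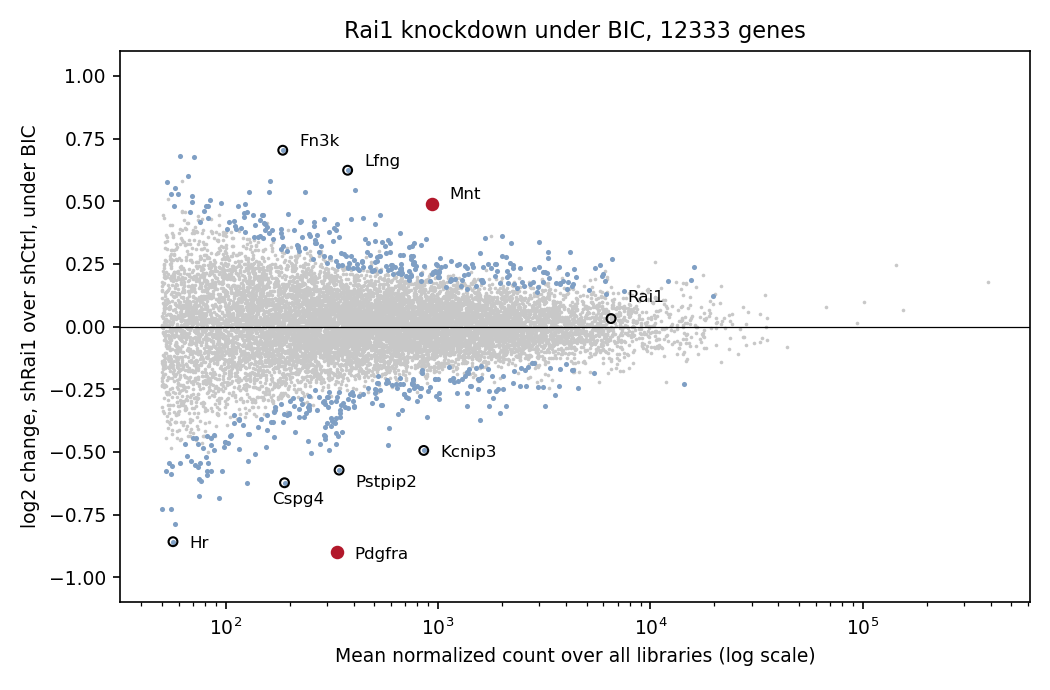
Each point is a gene, with its mean normalized count over all libraries on a log scale across and its log2 change, shRai1 over shCtrl under BIC, upward. The 2 red points, Pdgfra at -0.90 and Mnt at 0.49, were called, blue points have an unadjusted p under 0.05, grey points do not, and open circles mark other named genes.

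Pdgfra, the receptor for PDGF-A on oligodendrocyte precursor cells, held the largest change of all. It lies at chr5:75548316-75594229, shares this interval with Mir7025, and had a mean normalized count of 336 and a pooled FPKM in shCtrl_BIC of 5.0 (3.55 to 6.45). In the authors' deposited table nascent Pdgfra fell by 0.90 on the log2 scale (SE 0.132, adjusted p 1.93e-07), to 0.536 of the control (95% interval 0.448 to 0.641). The fall was also called in vehicle (-1.37, SE 0.132, adjusted p 6.02e-21), and in TTX the authors' deposited table called a rise (0.50, SE 0.115, adjusted p 0.0482). Under BIC and in vehicle the sign was thus the same, and in TTX it was opposite. The size under BIC differed from that in vehicle by 0.47 (SE 0.187), with an unadjusted p of 0.0127 that did not pass adjustment (1.00).

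Mnt encodes a repressor that pairs with Max and competes with Myc at E-box sequences. It lies at chr11:74644426-74659227, had a mean normalized count of 940 and a pooled FPKM of 17.3 in shCtrl_BIC (13.2 to 21.5). The authors' deposited table gave a rise of 0.49 (SE 0.101, adjusted p 0.0116), 1.40 times the control (1.23 to 1.61). Mnt was also called higher in vehicle (0.35, SE 0.0964, adjusted p 0.0428), a call that adjustment over all 21192 genes ended (0.0636), and lower in TTX (-0.39, SE 0.0878, adjusted p 0.0324). BIC itself lowered Mnt in shCtrl, by -0.78 against vehicle in the authors' deposited table.

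A group of 3 further genes stood just short of the threshold, each with an adjusted p of 0.0581. Lfng, the Fringe glycosyltransferase that modifies Notch receptors, was at 0.62 (SE 0.142) in the authors' deposited table, on a pooled FPKM of 12.4 in shCtrl_BIC. Pstpip2, an F-BAR protein that links membranes and actin, was at -0.57 (SE 0.129). Kcnip3, the calcium-binding partner of Kv4 potassium channels also known as DREAM, was at -0.49 (SE 0.114). Adjusted over the 12333 genes instead of all tested genes, the 3 had an adjusted p of 0.0338 and joined Pdgfra and Mnt, which makes 5 called genes.

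The promoters of Mnt, Lfng, Cry1 (a clock gene described below) and Pdgfra are shown because these 4 genes differed most firmly between BIC and TTX, and because Mnt-Max and the clock's Clock-Bmal1 pair both bind E-boxes. RefSeq windows on GRCm38.p6, from 250 bases before to 50 after each listed start, were searched for the E-box CACGTG, the CRE TGACGTCA and the AP-1 site TGANTCA on both strands, where matches of different motifs may overlap in part. Of 32851 windows, 7.15% held the E-box, 1.79% the CRE and 7.81% the AP-1 site. The windows of Mnt, Lfng and Cry1 held 1 E-box each, with its first base 123, 112 and 60 bases before the start, and that of Pdgfra held none of the 3 motifs. Among other genes searched, both windows of Tef and 1 of 2 windows of Per1 held an E-box, the window of Hlf held a CRE and no E-box, and those of Nfil3, Cry2, Cspg4 and Olig2 held none of the 3 motifs. Of 3 windows of Kcnip3, 1 held an AP-1 site and none an E-box. Among the few genes searched, some above 0 under BIC had an E-box and some had none. A relation between motif and change was not tested. A match is a description of letters and not a measured site. The 250 bases before the start follow, 5′ to 3′ on the gene's strand, with the E-box in capitals.
Mnt, chr11:74830674-74830923, plus strand: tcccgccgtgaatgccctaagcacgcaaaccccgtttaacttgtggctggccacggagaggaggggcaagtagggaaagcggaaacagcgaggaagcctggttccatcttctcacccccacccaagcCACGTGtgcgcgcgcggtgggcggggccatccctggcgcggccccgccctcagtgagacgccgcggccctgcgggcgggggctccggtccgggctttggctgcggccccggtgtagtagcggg
Lfng, chr5:140607091-140607340, plus strand: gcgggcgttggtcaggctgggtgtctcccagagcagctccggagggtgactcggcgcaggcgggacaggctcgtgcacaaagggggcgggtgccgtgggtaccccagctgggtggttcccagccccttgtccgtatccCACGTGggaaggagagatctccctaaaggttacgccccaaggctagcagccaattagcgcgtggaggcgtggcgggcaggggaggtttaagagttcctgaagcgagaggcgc
Cry1, chr10:85185055-85185304, minus strand: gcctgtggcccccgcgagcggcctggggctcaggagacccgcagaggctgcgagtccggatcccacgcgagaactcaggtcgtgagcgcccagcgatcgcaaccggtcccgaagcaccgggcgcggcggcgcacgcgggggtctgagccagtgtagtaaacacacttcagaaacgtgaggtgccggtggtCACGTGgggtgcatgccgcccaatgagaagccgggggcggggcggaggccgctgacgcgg
Pdgfra, chr5:75152001-75152250, plus strand: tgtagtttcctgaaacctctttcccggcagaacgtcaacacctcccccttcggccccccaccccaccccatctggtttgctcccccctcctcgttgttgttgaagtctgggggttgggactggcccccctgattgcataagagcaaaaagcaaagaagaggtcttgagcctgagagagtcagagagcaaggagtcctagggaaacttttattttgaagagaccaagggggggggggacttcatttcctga

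Among the 12 genes with the smallest p on the higher side, Mnt and Lfng led. Next came Igfbp3, a secreted binding protein of insulin-like growth factors, at 0.43 (SE 0.114), and Kcnab2, a cytoplasmic subunit of voltage-gated potassium channels, at 0.30 (SE 0.080) in the authors' deposited table. Both had an adjusted p of 0.348. Jmy, a cofactor of p53 that also nucleates actin, was at 0.29, and the adhesion receptor Gpr123 at 0.36. Hpca, the neuronal calcium sensor hippocalcin, was at 0.55 in the authors' deposited table, but its interval is shared with Tmem54. Dpf1, a subunit of the neuronal BAF chromatin remodelling complex, was at 0.41. Prkra (0.58), which activates the kinase PKR, Fn3k (0.70), Entpd6 (0.35) and Qtrt1 (0.43), the catalytic subunit of the enzyme that puts queuine into tRNA, closed the group, with adjusted p values of at most 0.622. The group other than Mnt had no called gene, and its values are a description.

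On the lower side, Cspg4 followed Pdgfra, Pstpip2 and Kcnip3. Cspg4, the NG2 proteoglycan of oligodendrocyte precursor cells, stood at -0.62 (SE 0.156, adjusted p 0.230) in the authors' deposited table, on a mean normalized count of 189. Afap1l2, an adaptor on actin filaments, was at -0.41, and Ggta1, a galactosyltransferase, at -0.47. Stx8 (-0.32), an endosomal SNARE, Abca1 (-0.27), the transporter that exports cholesterol, and Gli3 (-0.37), a transcription factor of the hedgehog pathway, came next in the authors' deposited table. Sash1 (-0.25), Kank1 (-0.43) and Podxl (-0.50) completed the 12. None of these but Pdgfra was called.

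Ordered by size instead of p, the largest values belonged mostly to genes near the count minimum. Above 0, Fn3k at 0.70 (mean count 186) was followed in the authors' deposited table by Tfap2c (0.68, SE 0.290), the serotonin receptor gene Htr5b (0.68, SE 0.232), Lfng and Lca5l (0.60, SE 0.245). Below 0, Pdgfra was followed by the corepressor gene Hr (-0.86, SE 0.259), Psrc1 (-0.79, SE 0.246), Commd5 (-0.73, SE 0.256) and Bcas1 (-0.73, SE 0.252). Apart from Fn3k, Lfng and Pdgfra their SEs ran from 0.232 to 0.290, against a median SE of 0.121 over all genes, and apart from Pdgfra none was called.

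**Figure D2:**
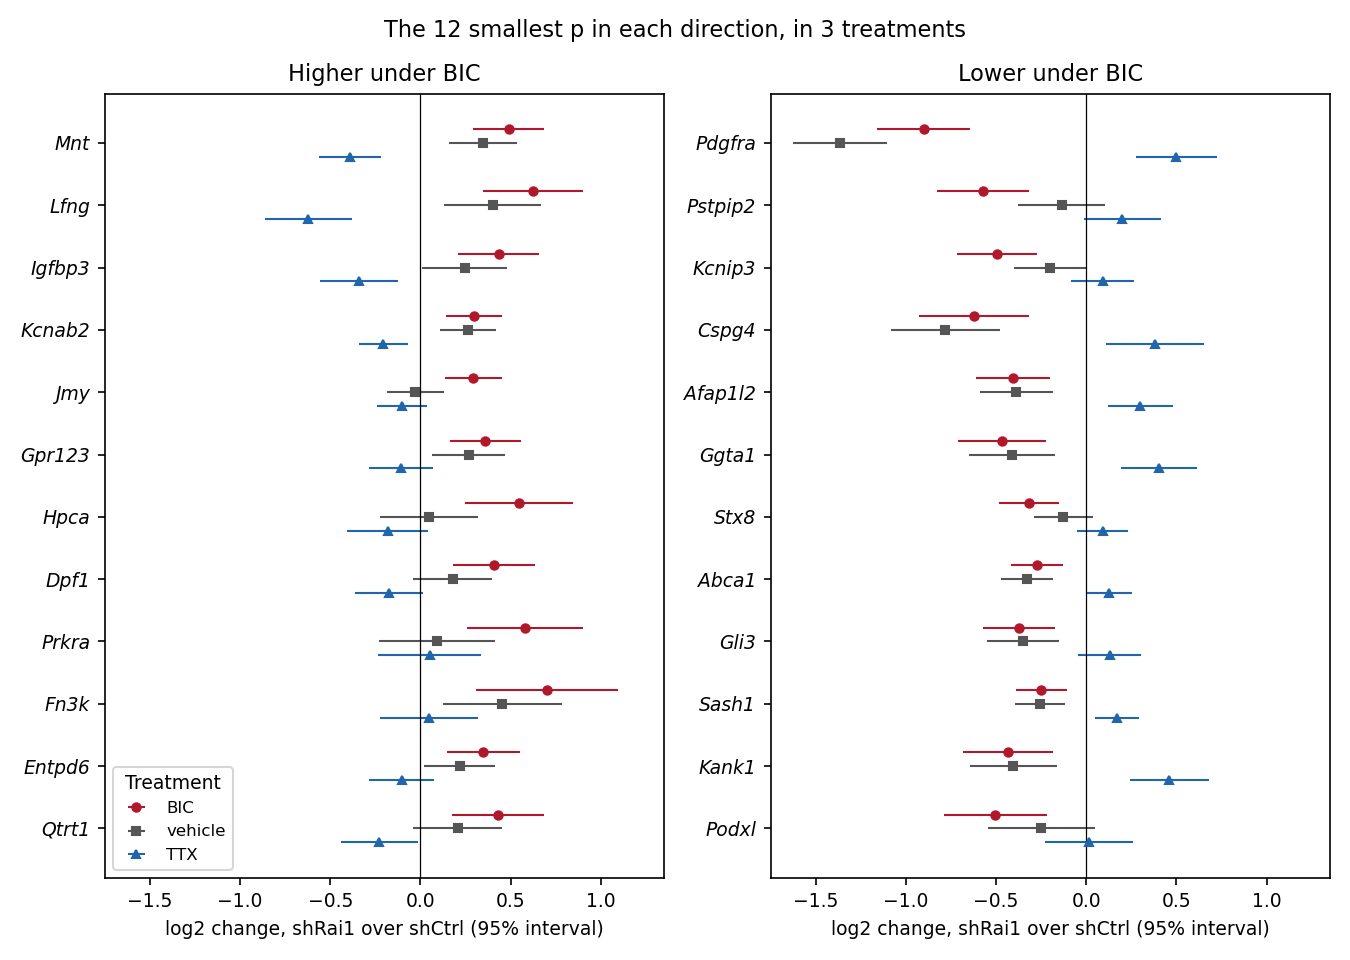
The 12 genes with the smallest p in each direction under BIC, with the log2 change and its 95% interval under BIC (red circles), in vehicle (grey squares) and in TTX (blue triangles). Pdgfra, Cspg4 and Mnt lie on the same side of 0 under BIC and in vehicle and on the other side in TTX, and Pstpip2 lies at -0.57 under BIC and -0.14 in vehicle.

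The knockdown under BIC was next compared with the knockdown in vehicle, to find genes whose dependence on Rai1 changed with the added activity. The 2 comparisons share no library, and their controls lack different replicate numbers, 1 under BIC and 3 in vehicle, which cannot be told apart from the treatment in these tables. The difference passed for 4 genes of 18241 (0.0219%), all 4 above 0, and 569 (3.12%) had an unadjusted p under 0.05. Syt4, a synaptotagmin of secretory vesicles, Scg2, a granin of dense-core vesicles, Ifrd1, a transcriptional coregulator, and Zdbf2, an imprinted gene, were lower with the Rai1 shRNA in vehicle and near 0 under BIC.

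For Syt4 the authors' deposited tables gave -0.58 in vehicle (SE 0.10, adjusted p 1.40e-05) and 0.08 under BIC (SE 0.089, adjusted p 1.00), a difference of 0.66 (SE 0.134, adjusted p 0.0121). Its pooled FPKM in shCtrl was 14.1 in TTX, 25.7 in vehicle and 98.4 in BIC, so its level followed activity. For Scg2 the authors' deposited tables gave -0.72 and 0.13, a difference of 0.85 (SE 0.187, adjusted p 0.0259), on a shCtrl FPKM of 11.6 in TTX, 40.8 in vehicle and 125 in BIC. Ifrd1 went from -0.55 in vehicle to -0.01 in the authors' deposited tables, a difference of 0.54 (SE 0.117, adjusted p 0.0254), on a shCtrl FPKM of 20.4, 54.3 and 221. The interval of Ifrd1 is shared with Mir1938. Zdbf2 went from -0.55 to 0.09, a difference of 0.65 (SE 0.133, adjusted p 0.0121), and its interval is shared with Gpr1. The BIC response of Zdbf2 in shCtrl was -0.14 in the authors' deposited table, while its pooled FPKM was 3.61 in TTX, 5.20 in vehicle and 11.3 in BIC, so the 2 sources differ for this gene. In the pooled FPKM all 4 genes were lowest in TTX and highest in BIC. Expressed as the response to BIC, the authors' deposited tables gave 1.94 in shCtrl and 2.60 in shRai1 for Syt4, and 1.75 and 2.60 for Scg2, which is the same difference seen from the other side.

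Genes called in vehicle were read in the BIC libraries, which did not choose them. Of 101 called lower in vehicle (0.819%), 77 were lower under BIC in the authors' deposited table, 29 of them at an unadjusted p under 0.05 (28.7%, against 1.97% of all genes). Their median was -0.47 in vehicle and -0.09 under BIC. Of 18 called higher in vehicle (0.146%), 17 were higher under BIC, 5 at an unadjusted p under 0.05 (27.8%, against 2.25%), and their median went from 0.39 to 0.16. A choice by size in vehicle by itself favours smaller values elsewhere, and the part of this choice was not tested. The 6 with the smallest p under BIC were Pdgfra, Mnt, Cspg4, Afap1l2, Abca1 and Sash1, and 4 of these, Mnt, Afap1l2, Abca1 and Sash1, differed between the treatments by at most 0.14.

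**Figure D3:**
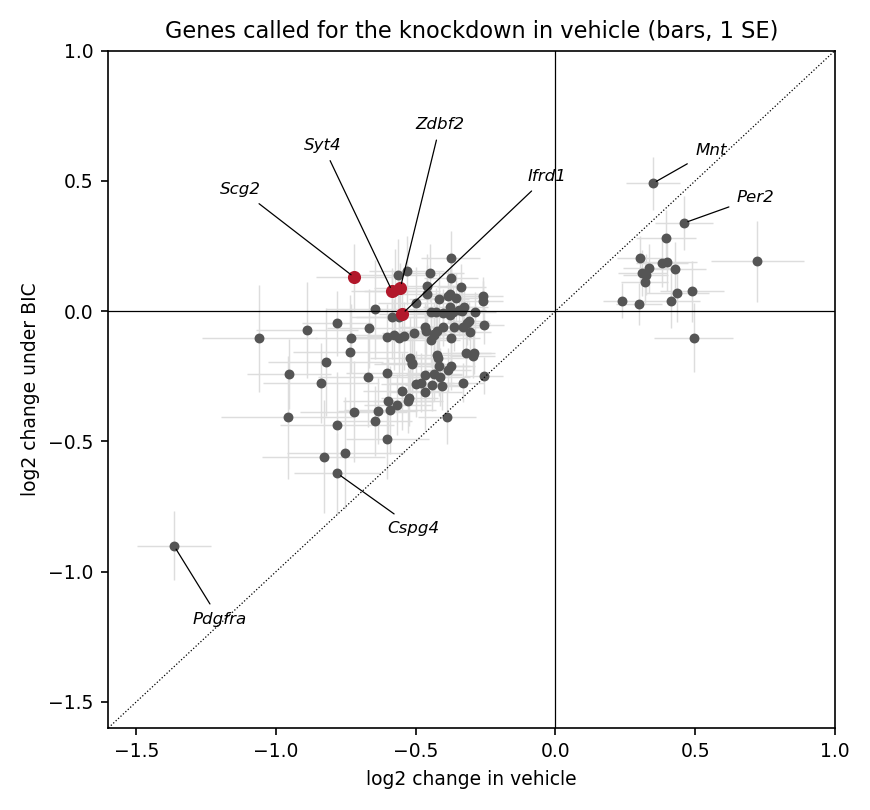
The 119 genes called for the knockdown in vehicle, with their log2 change in vehicle across and under BIC upward, bars of 1 SE and a dotted line of equality. Red points are the 4 genes whose difference passed, which lie near 0 under BIC, while Pdgfra lies at -1.37 and -0.90.

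The comparison with silenced cultures gave genes with opposite signs in active and silenced cultures. The difference between BIC and TTX passed for 33 genes of 18466 (0.179%), 12 above 0 (0.065%) and 21 below (0.114%), and 960 (5.2%) had an unadjusted p under 0.05. All 33 had opposite signs in the authors' deposited tables for BIC and TTX, to which a choice by the difference lends itself. The vehicle libraries had no part in the choice, and there all 33 had the sign they had under BIC, against 60.1% of all genes, and 27 had an unadjusted p under 0.05, against 12.3%. Of the 33, 32 had an unadjusted p under 0.05 under BIC, and of the 521 such genes 78.1% had the same sign in vehicle. Among these 521, 54 of the 278 higher and 95 of the 243 lower genes had that p in vehicle with the same sign. The 33 include genes of the oligodendrocyte lineage (Pdgfra, Cspg4, Olig2), the clock (Cry1, Per2, Hlf) and the p53 response (Trp53inp1, Eda2r).

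Pdgfra differed most, by -1.40 (SE 0.175, adjusted p 2.26e-11), with -0.90 under BIC and 0.50 in TTX in the authors' deposited tables. Olig2, the transcription factor of the lineage, stood at -0.49 and 0.50 (difference -0.99, SE 0.203, adjusted p 0.00159), and Cspg4 at -0.62 and 0.38 (difference -1.0, SE 0.209, adjusted p 0.00228). These 3 genes were lower with the Rai1 shRNA under BIC and higher in TTX, but of the 9 measured lineage genes 3 lay below 0 in TTX, Mbp (-0.19, unadjusted p 0.0233), Lhfpl3 (-0.17) and Sox8 (-0.02) in the authors' deposited table. Among the genes above 0, Lfng differed by 1.24 (SE 0.188, adjusted p 2.30e-07), from -0.62 in TTX to 0.62 under BIC in the authors' deposited tables, and Mnt by 0.88 (SE 0.134, adjusted p 2.30e-07). Igfbp3 and Kcnab2 differed by 0.77 and 0.51.

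The clock genes Cry1 and Per2, repressors of the circadian feedback loop, shared this pattern. Cry1 stood at 0.27 under BIC, 0.32 in vehicle and -0.55 in TTX in the authors' deposited tables, where the fall in TTX was called (adjusted p 0.000128), and its difference was 0.82 (SE 0.134, adjusted p 3.62e-06). Per2 stood at 0.34, 0.46 and -0.38 (difference 0.72, SE 0.141, adjusted p 0.000752), and Hlf, a clock-controlled PAR bZip factor, at 0.32, 0.24 and -0.29 (difference 0.61, SE 0.145, adjusted p 0.0209). In shCtrl the pooled FPKM of Per2 was 7.36 in TTX, 11.9 in vehicle and 24.1 in BIC, that of Cry1 was 4.38, 6.42 and 10.96, and that of Hlf was 9.95, 6.54 and 4.43. Cry1 and Per2 had their highest control FPKM in BIC and Hlf its lowest, and the knockdown values of the 3 genes had the same signs. A relation between control level and knockdown value was not tested.

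Among genes below 0, Trp53inp1, a p53-induced autophagy factor, stood at -0.33 under BIC and 0.42 in TTX in the authors' deposited tables (difference -0.75, SE 0.139, adjusted p 0.000214). Eda2r, a death-domain receptor induced by p53, stood at -0.62 and 0.53 (difference -1.15). Dhrs1, a dehydrogenase, Ggta1 and Kank1 differed by -0.98, -0.87 and -0.89, and Afap1l2 by -0.71. The 6 genes called for the knockdown in TTX were Pdgfra, Mnt, Lfng, Cry1, Trp53inp1 and Dhrs1, and all 6 were among the 33 and had an unadjusted p under 0.05 and the opposite sign under BIC.

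**Figure D4:**
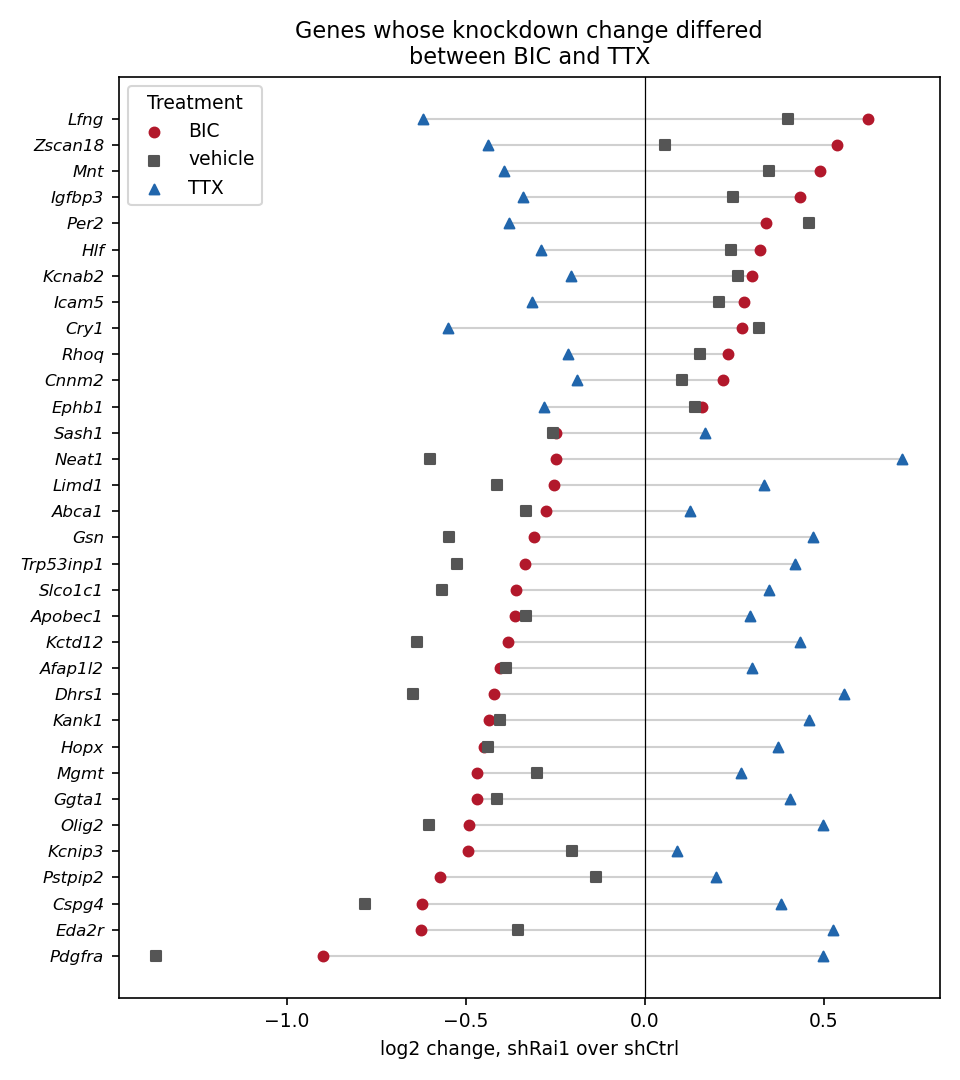
The 33 genes whose knockdown change differed between BIC and TTX, ordered by the value under BIC, with the log2 change under BIC (red circles), in vehicle (grey squares) and in TTX (blue triangles). Red and grey points lie on the same side of 0 for all 33, and blue ones on the other side, with Pdgfra at -0.90, -1.37 and 0.50.

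The same order of treatments was seen over the wider set. Of the 521 genes at an unadjusted p under 0.05 under BIC, 407 (78.1%) had the same sign in vehicle and 118 (22.6%) the same sign in TTX in the authors' deposited tables, against 60.1% and 41.8% of all 12333 genes. Among the 278 higher genes, 54 were also higher in vehicle at an unadjusted p under 0.05 and 11 lower, and in TTX 2 were higher and 37 lower. Among the 243 lower genes, 95 were also lower in vehicle and none higher, and in TTX 3 were lower and 45 higher. For scale, 5.09% of all genes were higher and 7.18% lower at that p in vehicle, and 1.72% and 2.99% in TTX. Across the 12333 genes the log2 changes under BIC had a Pearson r of 0.29 with those in vehicle and -0.24 with those in TTX. These 3 comparisons share no library, but they come from 1 fit, the genes are not independent, and same-numbered libraries may share a preparation.

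Gene lists were then read for their direction under BIC, chosen with earlier results of these data known. Over 26 lists, 24 had a median within 0.1 of 0, where all genes had 0.01. The lists of the oligodendrocyte lineage and of microglia, which had 2 measured genes and none at an unadjusted p under 0.05, lay outside that range.

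The oligodendrocyte lineage stood lowest. Of 20 genes, 9 passed the count minimum and 8 of these were lower under BIC, with a median of -0.41 in the authors' deposited table against -0.73 in vehicle and 0.30 in TTX. Pdgfra fell, and Cspg4, Olig2 and Bcas1, a gene of early myelinating cells whose interval is shared with Bcas1os2, had an unadjusted p under 0.05. The lineage factors Sox10 (-0.41, SE 0.259), Sox8 (-0.14) and Olig1 (-0.10), the precursor gene Lhfpl3 (-0.11) and the myelin gene Mbp (0.01, SE 0.098) did not reach that p. Over all 20 genes, most myelin genes being below the minimum, the median was -0.15, and over the 5 with a mean count of at least 200 it was -0.11. The summed FPKM of the list in shCtrl was 239 in BIC, 241 in vehicle and 218 in TTX. Of the other PDGF genes, the ligands Pdgfa (0.20, SE 0.145), Pdgfb (0.01) and Pdgfc (-0.03) the receptor Pdgfrb (-0.09, SE 0.189) and the receptor-like Pdgfrl (-0.14) did not reach an unadjusted p under 0.05 in the authors' deposited table.

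Astrocyte genes lay mostly below 0 under BIC, with a median of -0.06 and 10 of 13 below 0, where 52.0% of all genes were above 0. In vehicle all 13 were below 0 (51.3% of all genes), with a median of -0.27 and 3 called lower. In TTX 6 of the 13 were below 0, with a median of 0.00. Acsbg1, an acyl-CoA synthetase, at -0.28 (SE 0.101) and Glul, glutamine synthetase, at -0.16 (SE 0.079) had in the authors' deposited table an unadjusted p under 0.05, and the glutamate transporter Slc1a2 was at -0.18. Neuronal genes had a median of 0.05 under BIC, with 12 of 18 above 0 and Nefm, a neurofilament subunit, at -0.31 (SE 0.153). In vehicle 15 of the 18 were below 0, with a median of -0.09. The interval of Glul is shared with Mir8114 and that of Nefm with A230070E04Rik. The part of these marker levels in the other results was not tested.

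Activity-regulated genes were not lower under BIC. Of 48, 33 were higher and 15 lower, with a median of 0.08 in the authors' deposited table, against -0.34 in vehicle, where 43 were lower and 7 were called lower (51.3% and 0.819% of all genes), and 0.01 in TTX. Nfil3, a bZip repressor, at 0.28 (SE 0.111) and the small Maf factor gene Maff at 0.41 (SE 0.168) had an unadjusted p under 0.05 under BIC, none was lower at that p, and none was called. Genes that feed back on MAP kinase signalling had a median of 0.09, with Dusp4 at 0.19, Dusp8 at 0.19 and Dusp7 at 0.15, none at that p. Of 14 synaptotagmins 7 lay above and 7 below 0, and of 17 granins and neuropeptides 8 above and 9 below, with medians of 0.01 and -0.02. Syt11 (0.18) and Syt13 (0.21) and the somatostatin gene Sst (0.40) had an unadjusted p under 0.05, while Syt10 was at -0.28 and the neuropeptide gene Adcyap1 at -0.27 in the authors' deposited table.

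The clock list held the most genes at that p on the higher side, 6 of 22, where 2.25% of all genes were. These were Per2, Cry1, Hlf, Nfil3, Tef (0.24) and Cry2 (0.22) in the authors' deposited table, and 15 of the 22 were above 0 with a median of 0.05. Nfil3 was at -0.21 in vehicle and 0.09 in TTX, neither at that p, with signs opposite to those of Per2, Cry1 and Hlf. Per1 (0.23, SE 0.119) and the repressor gene Ciart (0.35) lay above 0 without reaching it, and the activators Arntl (0.02) and Clock (-0.05) lay near 0. Dbp, a PAR bZip factor like Hlf and Tef, was at -0.34 (SE 0.219).

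In the Notch list no gene was called. Beside Lfng at 0.62, the receptor gene Notch1 was at -0.26 (SE 0.107, in an interval shared with Mir6996), Notch2 at -0.16 and the target Hey1 at -0.30 (SE 0.149) in the authors' deposited table. These 3 and Lfng had an unadjusted p below 0.05, and 8 of the 15 measured genes were above 0 and the median was 0.00. Of 8 Notch genes below the count minimum, none reached an unadjusted p under 0.05, from the target Hes5 at -0.73 (SE 0.382) to Heyl at 0.39 (SE 0.421). Of 18 p53-response genes, Eda2r, Fas (-0.68, SE 0.238), a death receptor, and Trp53inp1 had an unadjusted p under 0.05 and were below 0. Of the 18, 7 were above 0, up to Pmaip1 at 0.35 (SE 0.234), and the median was -0.05, with Cdkn1a at 0.03, Mdm2 at -0.09 and Trp53 at 0.01. In the Myc network 10 of 11 genes were above 0, with Max, the shared partner, at 0.17 (SE 0.091) and Myc at 0.01, and Mnt was its only gene at an unadjusted p under 0.05.

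Genes of synaptic scaling showed little. None of 22 AMPA receptor and scaffold genes, 13 NMDA and metabotropic receptor genes and 13 GABA-A receptor genes had an unadjusted p under 0.05 under BIC, and their medians were 0.02, 0.02 and -0.01. Gria1 and Gria2, the main AMPA subunits, were at 0.01 and -0.03 in the authors' deposited table with SEs of 0.103 and 0.115, and Homer1, an activity-regulated scaffold, at -0.06. Of 19 genes linked to homeostatic scaling, 2 were higher at that p, where 2.25% of all genes were, and none was lower. These were the kinase gene Cdk5 (0.39, SE 0.174) and the retinoic acid receptor gene Rara (0.24, SE 0.121). Plk2 was at 0.00, where the difference from vehicle, 0.43 (SE 0.131), did not pass (adjusted p 0.793). Among sodium and calcium channels the beta subunit gene Scn3b was at 0.30 (SE 0.118).

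Of 33 chromatin regulators, Hdac5, a deacetylase that shuttles with activity, was at 0.30 (SE 0.101) and Arid1b, a BAF subunit, at 0.12 (SE 0.058) in the authors' deposited table, and the list's median was -0.01. The interval of Hdac5 is shared with Mir8101. The 29 measured genes of the Smith-Magenis interval had a median of 0.04, with the tumour suppressor Flcn at 0.26 and the endocytic adaptor Epn2 at -0.24 as the genes with an unadjusted p under 0.05. In the cell cycle list 13 of 22 genes were above 0 with a median of 0.05, and Top2a, at -0.39 (SE 0.193), was its gene at an unadjusted p under 0.05. Among integrated stress genes Shmt2 was at 0.40 (SE 0.163, in an interval shared with Ndufa4l2) and Sars at 0.18. No gene of the cholesterol, heat shock or interferon lists reached an unadjusted p under 0.05. Over all lists 420 different genes were measured, of which 20 were higher and 15 lower at that p (4.76% and 3.57%, against 2.25% and 1.97% of all genes). The lists were chosen with earlier results of these data known, and the part of that choice in these shares was not tested.

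**Figure D5:**
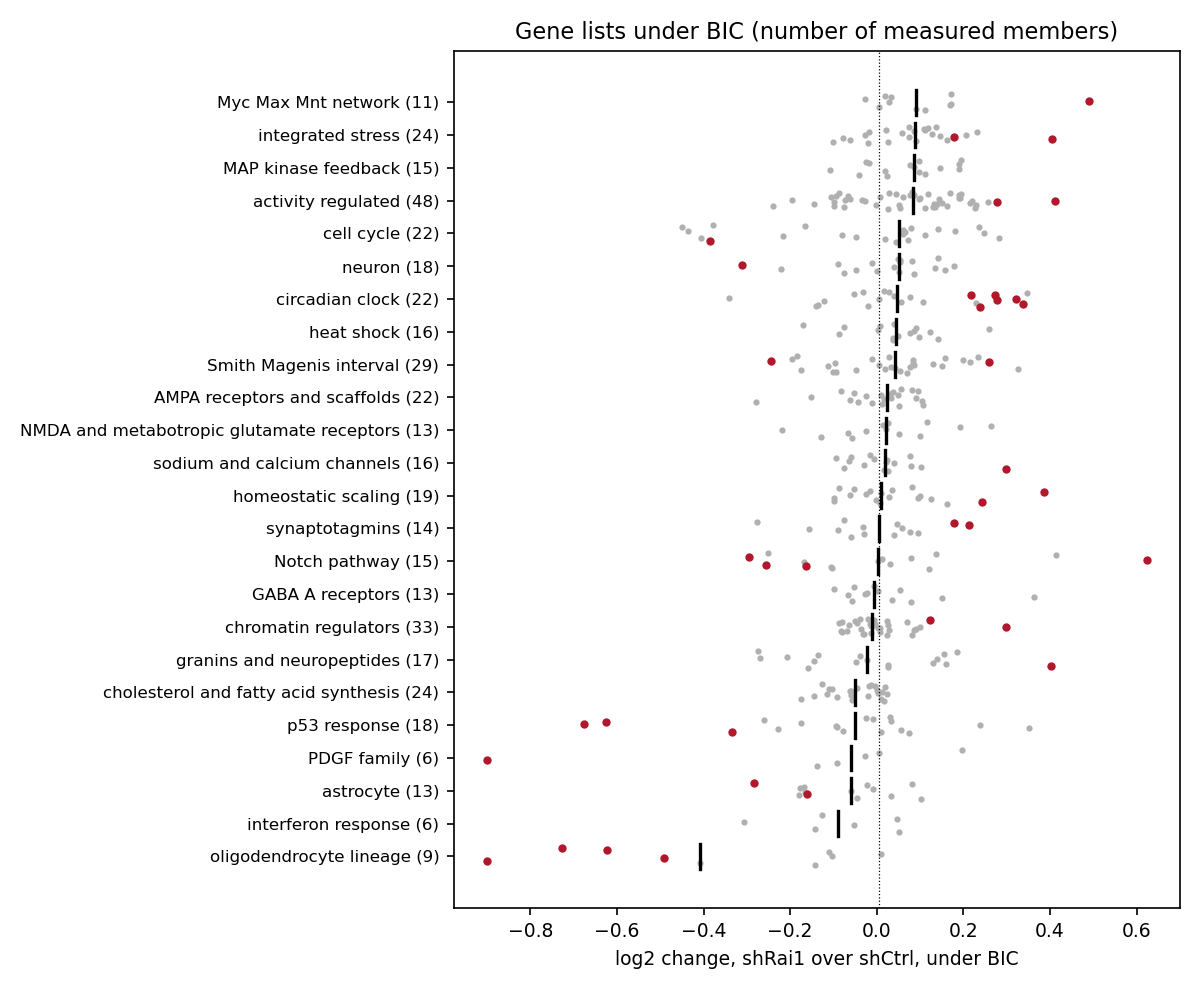
Each point is a measured gene of a list with at least 5 of them, with its log2 change under BIC across, red where the unadjusted p is under 0.05. Black bars are medians, from -0.41 for the oligodendrocyte lineage to 0.09 for the Myc network, and the dotted line is the median of all 12333 genes.

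Genes that depend on activity were also chosen by TTX in the control arm, from libraries that are not in the BIC comparison. Of 273 genes lowered by TTX by at least 1 (2.21%), 176 were higher under BIC with the knockdown, 21 at an unadjusted p under 0.05 and 2 lower at that p (7.69% and 0.733%, against 2.25% and 1.97% of all genes), with a median of 0.04 in the authors' deposited table. Of 98 genes raised by TTX by at least 1 (0.795%), 58 were higher, 5 at an unadjusted p under 0.05 and 2 lower at that p, with a median of 0.02. Of all 2247 genes lowered by TTX (18.2%), 1189 (52.9%) were higher under BIC, near the 52.0% of all genes, with 78 higher and 71 lower at an unadjusted p under 0.05. Of the 1706 raised (13.8%), 970 were higher, with 63 and 27 at that p. Gene length had a slight relation to the values: in 10 equal groups by length, the median went from 0.03 in the shortest (up to 5.84 kb) to -0.02 in the longest (from 167 kb). Over 10 groups by mean count the median stayed between 0.00 and 0.01, and the share at an unadjusted p under 0.05 between 3.24% and 5.27%.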

How the data were processed

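Bru-seq comparisons were taken from 7 deposited tables and the authors' table of FPKM; the 12 ChIP-seq samples were not used here. The tables hold, per the file headers, a mean normalized count (a signal that the authors averaged over libraries after scaling), the log2 fold change with its error, the Wald score, and the p-value before and after adjustment. The submitters' processing notes name TopHat2 2.1.0, Bowtie2 2.2.6, DESeq2 and mm9. Low genes had shrunken changes: the largest was 0.76 among genes with a mean count under 1. In the FPKM table, per the file headers, the authors give 1 value and its bounds for each condition; its shRai1 columns were used only in the mean over 6 conditions, since their names do not follow the comparison tables. The deposited table for vehicle has no gene column, and 20107 genes were named by their unique mean count, with log2 changes closing within 1e-09.

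The plan allowed for summaries only. Differences of the knockdown between treatments were computed here from contrasts that share no library, with the root of the summed squared SEs, a two-sided Wald test and Benjamini-Hochberg adjustment over genes with a mean FPKM of at least 0.1 (Python 3, numpy, scipy). On simulated data with 200 changed genes over 18241 genes (vehicle), 23.5% were recovered at a log2 difference of 0.5, 85.5% at 1 and 100% at 2. Over 18466 genes (TTX), 32.5%, 86.5% and 100% were. In the same order, false calls numbered 0, 4 and 7 for vehicle and 2, 9 and 9 for TTX. These shares and counts describe that data only. The deposited changes of low genes are shrunken, and the recovery of differences among the deposited changes was not tested.

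Members and lists were chosen with earlier results of these data known. Named genes were Rai1, called genes, the 12 smallest p and 5 largest changes (unadjusted p under 0.05) per direction, at most 6 called genes per direction of each difference, at most 3 genes per list by smallest p, and the 6 smallest p under BIC among genes called in vehicle or TTX. Other genes of the lists and of the sets of called genes were named after their values were seen. Of 538 list entries, 535 matched by symbol and 2 by synonym. RefSeq promoters (GRCm38.p6) matched 79.9% of the 12333 genes by symbol or synonym, under the 80% set as a minimum, so the comparison of base composition and motifs over genes is void and not given. Of the 12311 genes with an interval, 2456 share it with another listed gene, and how shared reads were counted is not given in the sources used here. The values of 1 gene among the cell type markers are not reported here.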

Additional observations from a re-analysis of the deposited data

Results flagged for a closer look

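The change with the Rai1 shRNA differed between BIC and vehicle, by the Wald test of the difference with Benjamini-Hochberg adjustment, in Syt4 (0.66), Zdbf2 (0.65), Ifrd1 (0.54) and Scg2 (0.85), in log2 units of BIC minus vehicle. These 4 genes had an unadjusted p under 0.05 in vehicle and none had one under BIC.

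Between BIC and TTX, by the same test, 33 genes differed, 12 above 0 and 21 below, and 13 of these are not named here. Those named above 0 were Lfng (1.24), Mnt (0.88), Cry1 (0.82), Igfbp3 (0.77), Per2 (0.72), Hlf (0.61) and Kcnab2 (0.51). Those named below 0 were Pdgfra (-1.40), Eda2r (-1.15), Cspg4 (-1.0), Olig2 (-0.99), Dhrs1 (-0.98), Kank1 (-0.89), Ggta1 (-0.87), Pstpip2 (-0.77), Trp53inp1 (-0.75), Afap1l2 (-0.71), Kcnip3 (-0.58), Sash1 (-0.42) and Abca1 (-0.40). Among the 33 genes that passed in all, 29 had an unadjusted p under 0.05 in both treatments.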

How the results depend on the processing

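No paired analysis was possible because the deposited tables hold no values per library, and for the same reason leaving out each replicate, another normalization and another count model were not run. The 2 genes called under BIC became 5, with Pstpip2, Lfng and Kcnip3 added, when p-values were adjusted over the 12333 genes, over genes with a mean FPKM of at least 0.5, or over genes with a mean count of at least 20, 100 or 200, and at a threshold of 0.1; at a threshold of 0.01, 1 gene was called, Pdgfra. The count stayed at 2 when adjusted over genes with a mean FPKM of at least 0.1 and with the median set to 0. In vehicle 119 became 80 over all tested genes, where Mnt and Sash1 lost their call, and 124 over the 12333 genes, and in TTX 6 were called in both, alternatives chosen after seeing the data. The 4 genes that differed between BIC and vehicle became 0 at 0.01 by the Wald test, where 569 had an unadjusted p under 0.05. The 33 that differed between BIC and TTX became 61 at 0.1 and 20 at 0.01, 27 when adjusted over all tested genes (all 27 among the 33), 42 when adjusted over the 12333 genes (all 33 included) and 32 with medians set to 0 (31 shared). Setting the median of all genes to 0 subtracted 0.01 and took the higher share of genes at an unadjusted p under 0.05 from 53.4% to 47.9%, so that neither direction holds the majority under both. The oligodendrocyte median of -0.41 became -0.15 over all matched genes and -0.11 over genes with a mean count of at least 200. Of the alternatives run, only setting medians to 0 altered a log2 change, so they could not check the direction of the called genes. Of 26 list medians, 5 changed sign. Notch went from 0.00 to -0.05 and granins from -0.02 to 0.08 over genes with a mean count of at least 200, where the microglial and interferon medians also changed sign, and the synaptotagmins did so when the median of all genes was set to 0. With 2 control libraries, the median 95% interval reached 0.24 to either side of the estimate.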

Other observations

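Across 8893 genes with a mean count of at least 200, the log2 ratio of the FPKM columns named KD_Bic and KD_Unt had a Pearson r of 0.29 with the deposited BIC response in shRai1, the ratio of KD_TTX and KD_Bic one of 0.86, and the corresponding shCtrl columns one of 0.79 with the response in shCtrl.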
